A study of Mus musculus with 15 samples.

Results

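Ly6 genes encode small, cysteine-rich proteins held at the cell surface, and 6 of them were followed here across blood monocytes and macrophage subsets of the mouse small intestine: Ly6a, Ly6c1, Ly6c2, Ly6e, Ly6i and Ly6d. They were chosen by gene symbol and matched to Ensembl gene identifiers in the table of gene counts, which held 19456 genes. All 6 were found, and all 6 passed the filter on low counts that left 15802 genes for testing. On the Ly6 cluster of chromosome 15 (build GRCm38), the 6 genes lay within 349.915 kb. Ly6d (ENSMUSG00000034634.7) lay at chr15:74762056-74763620, Ly6e (ENSMUSG00000022587.14) at chr15:74955051-74959905, and Ly6i (ENSMUSG00000022586.11) at chr15:74979534-74983430. Ly6a (ENSMUSG00000075602.10) lay at chr15:74994877-74998031, Ly6c1 (ENSMUSG00000079018.10) at chr15:75044018-75048830, and Ly6c2 (ENSMUSG00000022584.14) at chr15:75108158-75111970. Ly6e was on the plus strand and the other 5 on the minus strand, and none overlapped another annotated gene.

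Proteins of this family share the LU domain, a compact fold pinned by disulfide bonds from which loops extend like fingers, and most members are tied to the outer leaflet of the membrane by a glycosylphosphatidylinositol (GPI) anchor. Several are used as antibody targets to tell leukocytes apart. Ly6C, the product of Ly6c1 and Ly6c2, marks the classical monocytes of mouse blood and is lost as these cells become gut macrophages. Ly6a encodes Sca-1, best known from haematopoietic stem cells and also found on activated lymphocytes and endothelium, whereas Ly6d is used to stage early B lymphocytes and Ly6e is an interferon-inducible gene found on many cell types.

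RNA was sequenced in bulk from cells of wild-type adult male C57BL/6 mice, sorted on 3 or 4 separate occasions per population. There were 3 libraries of Ly6Chi blood monocytes and 4 libraries each of small intestinal macrophages that lacked Tim-4 and CD4 (Tim-4-CD4-), carried CD4 alone (Tim-4-CD4+) or carried both (Tim-4+CD4+). Each library held the pooled cells of 3 mice, or of 4 mice for monocyte replicate 2, so the spread between libraries is a spread between pools and not between single animals. Library totals ran from 39388763 to 151510641 counts. Timd4, which encodes Tim-4, averaged 355 CPM (read counts scaled to a common library size, corrected by the trimmed mean of M values) in Tim-4+CD4+ macrophages against 1.11 and 1.70 CPM in the other subsets, and Cd4 rose from 22.9 CPM in Tim-4-CD4- to 531 and 816 CPM in the CD4+ subsets. C1qa, a complement gene of macrophages, was at 2.31 CPM in monocytes and averaged 3462 to 4069 CPM in the macrophage subsets. The sort itself used Ly6C: monocytes were taken as Ly6Chi, and Ly6C was placed in the exclusion channel of the macrophage sort. Macrophages were further gated as CD45+, CD11b+ and CD64+, with cells stained for TCRβ, B220, Ly6G or Siglec F left out. Levels of Ly6c1 and Ly6c2 between monocytes and macrophages therefore check the gate and are given as a description.

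How far the 6 genes can be told apart by their reads depends on how alike they are. The coding part of the first coding exon is shown for the 4 most similar members and for Ly6e, each compared with Ly6c2. Capitals mark bases that differ from Ly6c2 at the same position, all are written 5′ to 3′ on the coding strand, and all come from GENCODE transcripts on GRCm38.
Ly6c2 (chr15:75111598-75111667, minus strand): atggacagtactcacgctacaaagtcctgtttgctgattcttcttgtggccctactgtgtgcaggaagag
Ly6c1 (chr15:75048442-75048511, minus strand): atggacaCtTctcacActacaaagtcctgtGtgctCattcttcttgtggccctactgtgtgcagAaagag
Ly6a (chr15:74997535-74997604, minus strand): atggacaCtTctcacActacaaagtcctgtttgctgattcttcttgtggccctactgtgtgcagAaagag
Ly6i (chr15:74982990-74983059, minus strand): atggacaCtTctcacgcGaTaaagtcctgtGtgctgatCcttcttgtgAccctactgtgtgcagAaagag
Ly6e (chr15:74957808-74957877, plus strand): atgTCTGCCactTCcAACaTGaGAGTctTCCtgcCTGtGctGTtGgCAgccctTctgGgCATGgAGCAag
Over these 70 bases Ly6a differed from Ly6c2 at 4 positions, Ly6c1 at 6, Ly6i at 8 and Ly6e at 39. Within this exon Ly6a was therefore closer to Ly6c2 than Ly6c1 was.

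The order changed in the next coding exon, 117 bases long in these 4 genes. Ly6c1 and Ly6c2 were identical across all of it, with 0 differences, and Ly6a and Ly6i differed from both at 25 and 23 positions. It is shown because a 65-base read lying wholly inside it cannot be given to either Ly6C gene. Capitals again mark bases that differ from Ly6c2.
Ly6c1 (chr15:75047353-75047469, minus strand) and Ly6c2 (chr15:75110511-75110627, minus strand): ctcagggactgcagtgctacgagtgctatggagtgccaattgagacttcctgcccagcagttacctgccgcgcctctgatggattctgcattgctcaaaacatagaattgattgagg
Ly6a (chr15:74996452-74996568, minus strand): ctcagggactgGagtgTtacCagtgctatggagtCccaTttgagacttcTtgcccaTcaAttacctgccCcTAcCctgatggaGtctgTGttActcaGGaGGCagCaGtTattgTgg
Ly6i (chr15:74981886-74982002, minus strand): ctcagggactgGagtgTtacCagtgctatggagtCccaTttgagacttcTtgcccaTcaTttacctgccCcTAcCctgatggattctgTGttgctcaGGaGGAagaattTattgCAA
Across whole coding sequences, Ly6c1 and Ly6c2 were 97.7% identical, with 9 of 396 bases different and a longest shared run of 188 bases. Ly6a and Ly6i were 86.4% identical, and the pairs between those 2 genes and the Ly6C genes were 81.5 to 82.0% identical. Ly6e and Ly6d stood apart, at 47.1 to 53.8% identity with any other member and with no shared run over 10 bases.

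Reads of 65 bases were counted by the authors only where they mapped to a single place, so stretches shared between genes are lost from both. Of all 65-base windows in 1 transcript per gene, 27.8% of those of Ly6c1 (217 of 780) and 25.3% of those of Ly6c2 (192 of 758) occurred exactly in a transcript of another gene. The share was 2.78% for Ly6a and 1.74% for Ly6i, and 0 windows were shared for Ly6e and Ly6d. Ly6c1 windows recurred in Ly6c2 or Ly6a, and those of Ly6c2 in Ly6c1. Those of Ly6a and Ly6i recurred in each other or in I830127L07Rik, a pseudogene of the same cluster that lies beside Ly6c2. Over all annotated transcripts the shares were 24.4% for Ly6c1, 11.1% for Ly6c2 and 11.3% for Ly6a. These shares count exact matches in annotated transcripts only, and the mate of each paired read could still place it. They do not cover reads with errors that were placed on the wrong gene. Counts of Ly6c1 and Ly6c2 are therefore uncertain by an amount that was not tested.

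**Figure D1:**
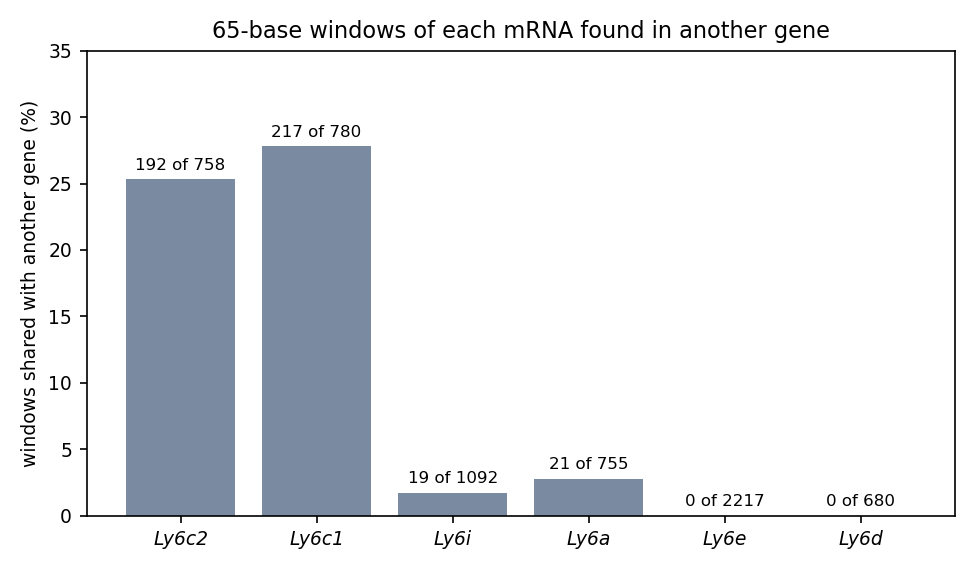
Bars give, for 1 transcript of each gene on the x axis, the percentage of its 65-base windows that also occur in a transcript of another gene, with the number of windows above each bar. Ly6c1 and Ly6c2 reach 27.8% and 25.3%, Ly6a and Ly6i stay under 3%, and Ly6e and Ly6d share none.

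Monocytes and macrophages carried very different mixtures of these genes. In monocytes Ly6e made up 73.5% ± 2.16 (SD, n = 3) of the counts of the 6 genes and Ly6c2 25.7% ± 1.99, whereas in macrophages Ly6e alone made up 97.0% ± 0.367 (Tim-4-CD4-), 98.0% ± 0.162 (CD4 alone, Tim-4-CD4+) and 98.2% ± 0.0734 (both markers, Tim-4+CD4+; SD, n = 4 each). The summed level of the 6 genes was 4184 ± 1163 CPM in monocytes and 1666 ± 118, 1558 ± 93.5 and 1705 ± 341 CPM in the macrophage subsets in the same order. Monocyte replicate 1 held the highest level among the 3 monocyte libraries for 5 of the 6 genes, all except Ly6d. In bulk RNA, fewer cells that carry a transcript and less of it per cell cannot be told apart.

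**Figure D2:**
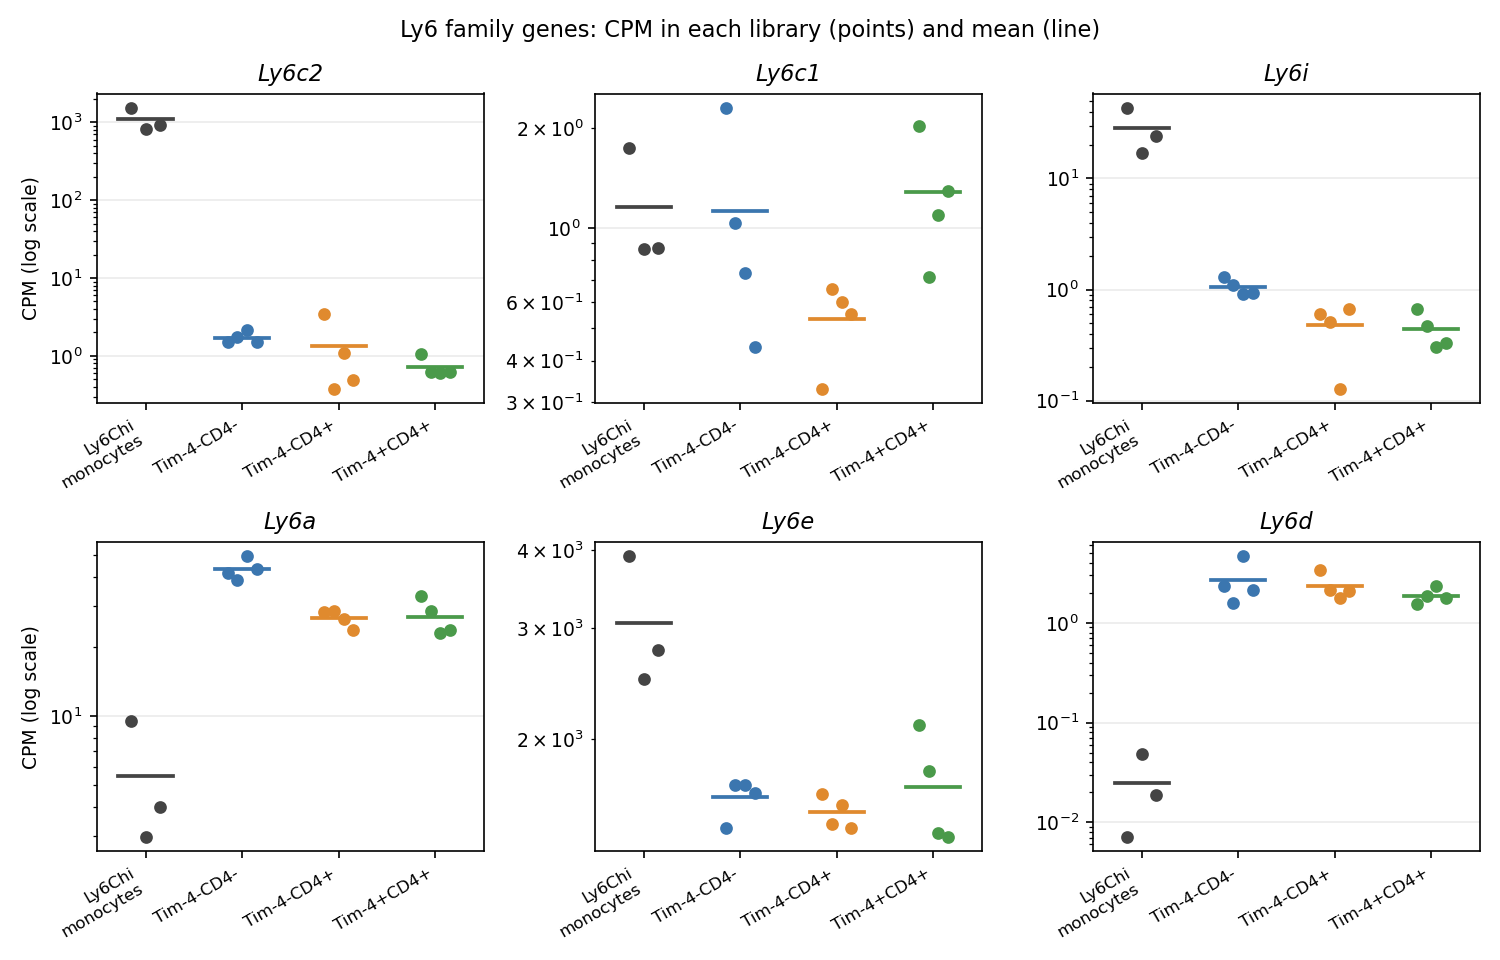
Each panel plots 1 gene, with CPM on a log axis for every library (points, 3 for monocytes and 4 for each macrophage subset) and the mean of the population (line). Ly6c2 and Ly6i are high only in monocytes, Ly6a and Ly6d are higher in all macrophage libraries than in any monocyte library, and Ly6c1 spreads over the same range in most populations.

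Ly6c2, which with Ly6c1 encodes Ly6C, followed the gate. It stood at 1545, 820.0 and 912 CPM in the monocyte libraries. Tim-4-CD4- macrophages gave 1.497, 1.73, 2.13 and 1.53 CPM, Tim-4-CD4+ macrophages 3.46, 0.379, 1.07 and 0.486 CPM, and Tim-4+CD4+ macrophages 1.05, 0.628, 0.611 and 0.614 CPM. No macrophage library came near a monocyte library, and the fitted level in macrophages was 634-, 842- and 1475-fold lower (log2 fold changes of -9.31 ± 0.57, -9.72 ± 0.58 and -10.53 ± 0.59, SE). The Tim-4-CD4+ value rested partly on replicate 1, the macrophage library with the most Ly6c2. Without that library the log2 fold change was -10.67.

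Between macrophage subsets, Ly6c2 averaged 1.72 ± 0.294 CPM in Tim-4-CD4-, 1.35 ± 1.44 CPM in Tim-4-CD4+ cells and, at the lowest mean, 0.726 ± 0.217 CPM in Tim-4+CD4+ cells. All 4 Tim-4-CD4- libraries lay above all 4 Tim-4+CD4+ libraries, yet the difference missed the threshold in the edgeR quasi-likelihood test with Benjamini-Hochberg adjustment over all genes (log2 fold change -1.22 ± 0.51, adjusted p = 0.098). Tim-4-CD4+ libraries overlapped both neighbours, with adjusted p = 0.70 against Tim-4-CD4- and 0.50 against Tim-4+CD4+. The summed level of 8 blood monocyte markers moved in the same order, from 966 to 1198 CPM in Tim-4-CD4-, 358 to 514 CPM in Tim-4-CD4+ and 240.1 to 310.03 CPM in Tim-4+CD4+ libraries. Most of the sum was Ccr2 (means 660, 84.1 and 8.39 CPM) and Itgam (346, 267 and 209 CPM). Itgam encodes CD11b, part of the macrophage gate, and was at 353 CPM in monocytes. Vcan (1.15, 1.48 and 0.982 CPM) did not keep the order. Against Tim-4-CD4-, 3 of 8 were called lower in Tim-4-CD4+ (background 5.53%) and 4 of 8 in Tim-4+CD4+ (11.9%). Which Ly6c2 differences passed depended on Tim-4-CD4+ replicate 1 and on the fit. Without that library, Ly6c2 was lower than in Tim-4-CD4- cells in both Tim-4-CD4+ (log2 fold change -1.38, edgeR adjusted p = 0.019) and Tim-4+CD4+ cells (-1.21, adjusted p = 0.0091). The difference between the latter subsets was then 0.17 (adjusted p = 0.91). Tim-4+CD4+ against Tim-4-CD4- hardly moved in size. It also passed with all libraries and the title's replicate number as a block (-1.32, edgeR adjusted p = 0.031). Within Tim-4-CD4+ cells, replicate 1 was highest for both Ly6c2 and this list. Whether cells carrying monocyte RNA account for the Ly6c2 counts in macrophages was not tested.

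Within the monocyte libraries Ly6c1 and Ly6c2 kept the same order, but so did Ly6a, Ly6e and Ly6i. From monocytes to macrophages Ly6c1 did not follow its near-identical neighbour Ly6c2. Monocytes gave 1.74, 0.866 and 0.873 CPM, about the level of Tim-4-CD4- macrophages (2.30, 1.04, 0.733 and 0.440 CPM) and Tim-4+CD4+ macrophages (2.02, 0.714, 1.09 and 1.29 CPM). Tim-4-CD4+ macrophages were lower, at 0.330, 0.657, 0.601 and 0.554 CPM, and overlapped neither monocytes nor Tim-4+CD4+ cells. Against monocytes, where Ly6C was part of the gate, the log2 fold changes were -0.04 ± 0.48, -1.12 ± 0.49 and 0.14 ± 0.48, given as a description. None of the differences between macrophage subsets passed the threshold: the CD4-only subset against Tim-4-CD4- gave -1.08 ± 0.46 (edgeR adjusted p = 0.17), and Tim-4+CD4+ gave 0.17 ± 0.45 against Tim-4-CD4- cells (adjusted p = 0.83) and 1.26 ± 0.46 against the CD4-only subset (adjusted p = 0.19). These levels rest on 17 to 245 counts per library. In monocytes the Ly6c1 counts stood beside 49075 to 218063 counts of Ly6c2. Whether Ly6c2 reads placed on Ly6c1 add to the monocyte values was not tested.

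Ly6c1 is also transcribed by endothelium, and endothelial genes are given beside it. Endothelial cells lack CD45, which the macrophage gate required. The summed level of 12 endothelial markers was 0.905 to 1.90 CPM in monocytes, where 7 of the 12 (Tek, Emcn, Egfl7, Robo4, Ramp2, Cldn5 and Sox17) had at most 3 counts in every library. In macrophages all 12 were detected. Tim-4-CD4- libraries summed to 60.4, 35.2, 21.1 and 22.9 CPM in the order in which the Ly6c1 levels are given above, Tim-4-CD4+ libraries to 19.6, 24.1, 36.2 and 35.8 CPM, and Tim-4+CD4+ libraries to 85.7, 49.8, 55.0 and 56.8 CPM. Among Tim-4-CD4- libraries, and likewise among Tim-4+CD4+ libraries, the library with the most Ly6c1 also had the most endothelial RNA. The same did not hold in Tim-4-CD4+ cells, nor between populations, since the endothelial sum was far lower in monocytes and Ly6c1 was not. Its part in the Ly6c1 values was not tested.

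With the gated Ly6c2 low in macrophages, Ly6c1 made up more of the counts of the Ly6C genes there. Before any division by length, it exceeded Ly6c2 in the mean of Tim-4+CD4+ cells alone. Ly6c1 supplied 0.112%, 0.105% and 0.0957% of the Ly6c1 plus Ly6c2 counts in the monocyte libraries, a share 0.104% ± 0.00832 (SD, n = 3). Its share was 36.5% ± 17.3 in Tim-4-CD4- macrophages, 40.3% ± 23.9 in the Tim-4-CD4+ subset and 62.8% ± 6.54 where both markers were present (SD, n = 4 each). Single macrophage libraries ranged from 8.70% (95% Wilson interval 5.57 to 13.3%) in Tim-4-CD4+ replicate 1 to 67.8% (58.8 to 75.7%) in Tim-4+CD4+ replicate 4. Such intervals cover counting error only. Dividing the counts by exon length raised the shares to 0.171% in monocytes and 73.2% in Tim-4+CD4+ cells, without changing the order of the populations.

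**Figure D3:**
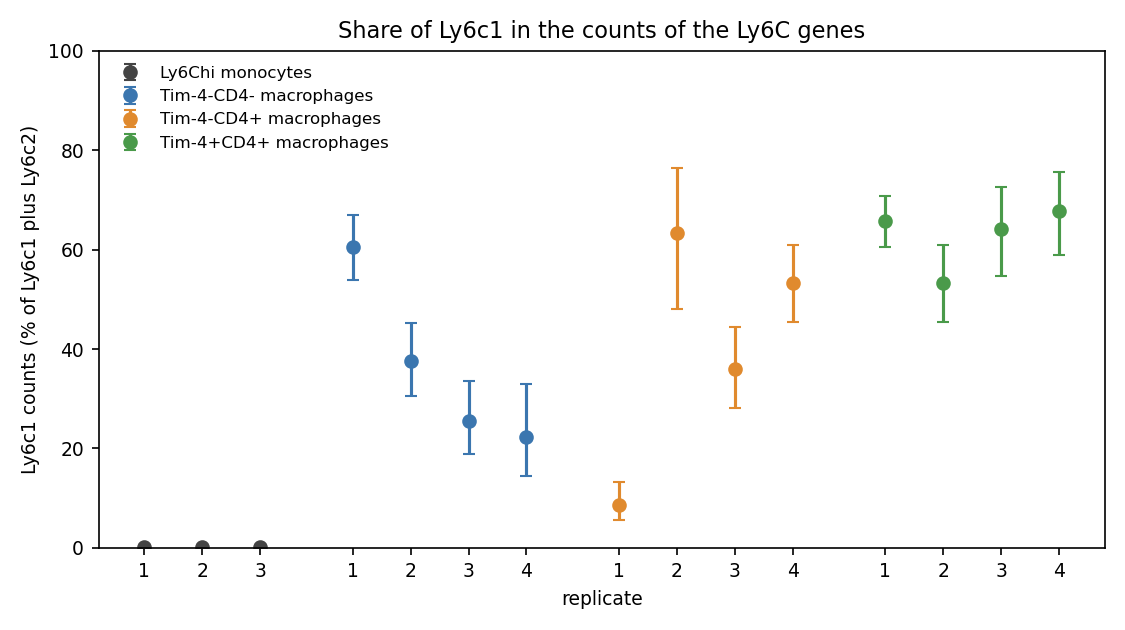
Points give the percentage of Ly6c1 in the counts of Ly6c1 plus Ly6c2 for each library (replicate number on the x axis, populations by colour), and bars give 95% Wilson intervals. The 3 monocyte libraries lie at about 0.1%, and the 12 macrophage libraries lie between 8.70% and 67.8%.

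Because near-identical coding sequences came with such different levels, the starts of both genes are shown from the RefSeq promoter table (GRCm38.p6), which matched 2 of the 6 members. Each window holds 250 bases before and 50 after the first listed start site. Capitals mark GAGGAA on either strand, the core read by ETS-family factors such as PU.1.
Ly6c2 (chr15:75111922-75112221, minus strand): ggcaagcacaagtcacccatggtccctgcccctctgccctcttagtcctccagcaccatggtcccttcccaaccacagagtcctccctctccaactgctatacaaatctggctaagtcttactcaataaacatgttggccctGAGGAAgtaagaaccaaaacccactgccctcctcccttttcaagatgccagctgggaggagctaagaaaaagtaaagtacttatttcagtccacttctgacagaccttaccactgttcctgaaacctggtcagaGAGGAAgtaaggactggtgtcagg
Ly6c1 (chr15:75048788-75049087, minus strand): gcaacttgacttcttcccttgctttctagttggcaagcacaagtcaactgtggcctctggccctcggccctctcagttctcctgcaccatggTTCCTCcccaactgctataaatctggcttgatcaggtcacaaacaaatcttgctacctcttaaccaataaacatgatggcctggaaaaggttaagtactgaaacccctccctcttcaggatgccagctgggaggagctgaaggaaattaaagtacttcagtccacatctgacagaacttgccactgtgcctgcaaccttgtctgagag
Aligned end to end, these windows were 62.3% identical (208 of 334 columns). The windows begin at different points of the related sequence, so their overhangs count as differences. By the same alignment 2 overlapping windows of Ly6c2 itself, from its 2 listed starts, were only 79.6% identical. The value is therefore not comparable with the 97.7% of the coding sequence. Ly6c2 held GAGGAA at positions -108 and 27 from the start site, and Ly6c1 held its reverse complement at -158. From the second listed start of Ly6c1, GAGGAA lay at -127 and its reverse complement at 14, and the window printed for Ly6c1 stops inside the former, so the matches counted depend on the start used. GAGGAA occurred in 28.3% of the 32851 promoters searched, so such a match is common. Neither window held the interferon-response letters (GAAA, then any 2 bases, then GAAA, in 3.44% of promoters on either strand) or the STAT-site letters TTCNNNGAA (8.30%). A match or its absence describes these letters only.

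Ly6i, a close relative of Ly6a with no part in the sort, was also a monocyte gene in these data. Monocyte libraries gave 43.5, 16.9 and 24.2 CPM. Levels fell to 1.30, 1.09, 0.905 and 0.932 CPM in Tim-4-CD4-, 0.605, 0.506, 0.128 and 0.662 CPM in Tim-4-CD4+ and 0.662, 0.465, 0.305 and 0.332 CPM in Tim-4+CD4+ macrophages. Every macrophage library lay below every monocyte library. By edgeR, Ly6i was 26.6-, 58.9- and 62.2-fold lower (log2 fold changes -4.73 ± 0.41, -5.88 ± 0.43 and -5.96 ± 0.43; adjusted p = 2.5e-08, 2.8e-09 and 2.1e-09). These comparisons share the same 3 monocyte libraries and are not independent of each other.

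Among macrophages, all 4 Tim-4-CD4- libraries lay above all 8 libraries of the CD4+ subsets for Ly6i. The lower level in Tim-4+CD4+ than in Tim-4-CD4- cells passed the threshold (2.34-fold, log2 fold change -1.23 ± 0.39, edgeR adjusted p = 0.033), and the fall to Tim-4-CD4+ cells, of similar size, did not (-1.15 ± 0.40, adjusted p = 0.084). Leaving out a library of either population compared lost the first call in 6 of 8 cases, with adjusted p up to 0.089, so the call depends on the libraries included. The CD4+ subsets did not differ beyond their spread (-0.08 ± 0.41, adjusted p = 0.95). Counts behind these values were 36 to 71 per Tim-4-CD4- library and 10 to 98 per CD4+ library.

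Ly6a, which encodes Sca-1, ran the other way. Monocytes gave 9.47, 2.97 and 4.03 CPM. Tim-4-CD4- macrophages gave 42.0, 38.9, 49.5 and 43.7 CPM, Tim-4-CD4+ macrophages 28.2, 28.4, 26.4 and 23.6 CPM, and Tim-4+CD4+ macrophages 33.3, 28.5, 22.9 and 23.5 CPM. The lowest macrophage library was above the highest monocyte library, and edgeR gave 7.83-, 4.79- and 4.87-fold higher levels (log2 fold changes 2.97 ± 0.29, 2.26 ± 0.29 and 2.28 ± 0.29; adjusted p = 1.6e-07, 2.6e-06 and 2.1e-06). Monocyte replicate 1, the highest for Ly6a, lowered these values: without it they were 3.67, 2.97 and 3.00.

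Tim-4-CD4- macrophages had the most Ly6a, and none of their 4 libraries overlapped the other subsets. Means were 43.5 ± 4.47, 26.7 ± 2.22 and 27.0 ± 4.85 CPM. The decreases of 1.63-fold to Tim-4-CD4+ and 1.61-fold to Tim-4+CD4+ cells nonetheless missed the threshold in the fit of all 15 libraries (log2 fold changes -0.71 ± 0.24 and -0.69 ± 0.24; edgeR adjusted p = 0.081 and 0.052). When the fit held only the 2 populations compared, both passed (adjusted p = 0.00040 and 0.0056), and so did both with DESeq2 (adjusted p = 0.029 and 0.025). Both also passed without monocyte replicate 1 (adjusted p = 0.0025 and 0.0014) or monocyte replicate 2 (0.029 and 0.018), and the second passed without Tim-4+CD4+ replicate 1 (0.036). Ly6a also marks T cells and endothelium. The summed level of 10 T cell markers ran from 1.19 to 2.95 CPM in monocytes, 3.73 to 6.68 CPM in Tim-4-CD4-, 9.15 to 14.7 CPM in Tim-4-CD4+ and 6.999 to 9.36 CPM in Tim-4+CD4+ libraries, so like Ly6a it was higher in macrophages than in monocytes, and among macrophages it was lowest in Tim-4-CD4- cells. Endothelial markers summed to 0.905 to 1.90 CPM in monocytes and to 21.1 to 60.4, 19.6 to 36.2 and 49.8 to 85.7 CPM in the same order, and the part of either list in the Ly6a values was not tested.

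Ly6e, the broadly used member, held the most counts of the 6 in every population. Monocytes gave 3910.3, 2494 and 2767 CPM. Macrophages gave 1443, 1689, 1692 and 1640.1 CPM (Tim-4-CD4-), 1634, 1463, 1569 and 1441 CPM (Tim-4-CD4+) and 2103, 1778, 1418 and 1394 CPM (Tim-4+CD4+). All macrophage libraries lay below all monocyte libraries. The decrease was 1.89-, 2.00- and 1.83-fold (log2 fold changes -0.92 ± 0.15, -1.002 ± 0.15 and -0.87 ± 0.15; edgeR adjusted p = 5.6e-05, 2.0e-05 and 8.2e-05). No difference between macrophage subsets passed the threshold, the largest being 0.13 ± 0.14 on the log2 scale (adjusted p = 0.70), and libraries of all 3 subsets overlapped.

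Ly6d, a marker of B lymphocyte staging, was close to absent from monocytes, with 1, 5 and 1 counts (0.00708, 0.0486 and 0.0186 CPM). Macrophages gave 2.34, 1.57, 4.68 and 2.12 CPM (Tim-4-CD4-), 3.37, 2.12, 1.79 and 2.07 CPM (Tim-4-CD4+) and 1.56, 1.84, 2.33 and 1.76 CPM (Tim-4+CD4+). Pooled counts per library size were 111 (95% exact interval 53.5 to 278), 94.8 (45.8 to 237) and 77.9 (37.6 to 194) times those of monocytes, intervals that cover counting error only. By edgeR the log2 fold changes were 6.70 ± 0.57, 6.51 ± 0.57 and 6.19 ± 0.56 (adjusted p = 2.3e-08, 2.7e-08 and 4.4e-08). Leaving out monocyte replicate 2, which held 5 of the 7 monocyte counts, raised them to 7.80, 7.61 and 7.29. The macrophage subsets overlapped and did not differ past the threshold (adjusted p = 0.31 to 0.81).

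RNA of B lineage cells was higher in macrophages than in monocytes, as was Ly6d, although cells stained for B220 were left out of the sort. The endothelial, T cell, mesenchymal and epithelial lists were higher in macrophages as well, so this gap is not particular to B lineage genes. The summed level of 10 B and plasma cell markers was 8.56 to 10.6 CPM in monocytes and 294 to 448, 280.5 to 422 and 253 to 448 CPM in the macrophage subsets. Most of it was Jchain, the antibody joining chain of plasma cells, at 0.174 CPM in monocytes and 297, 292 and 279.9 CPM in macrophages. The B lineage genes Ms4a1, Mzb1, Tnfrsf17 and Pou2af1 had at most 3 counts in every monocyte library. Of 8 plasmacytoid dendritic cell markers, the summed level was nearly all Tcf4, a broadly used transcription factor, at 98.4 CPM in monocytes and 115, 119 and 108 CPM in macrophages. Siglech, a marker of plasmacytoid dendritic cells, was at 0.172 CPM in monocytes and 2.04, 3.15 and 8.46 CPM in macrophages, and Ccr9 at 0.208 CPM in monocytes and 2.03, 2.95 and 2.27 CPM in macrophages. The summed level of 10 epithelial markers was 0.780 to 1.78 CPM in monocytes and 10.7 to 27.7 CPM over the macrophage libraries. The part of such cells in the Ly6d values was not tested.

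Set against the whole table, monocyte comparisons called most genes, so calls of members say little by themselves. In each of the 3 comparisons with monocytes the 4 members that the sort did not use all passed the threshold (edgeR adjusted p under 0.05), Ly6a and Ly6d higher in macrophages and Ly6i and Ly6e lower. Of the 2 that the gate bears on, Ly6c2 passed and Ly6c1 did not, which makes 5 of 6 in all and is no finding for Ly6c2. Of all tested genes, 65.4% were called in Tim-4-CD4- macrophages (37.3% higher, 28.1% lower). In the Tim-4-CD4+ comparison 69.8% were called (39.1% higher, 30.7% lower), and with both markers 70.9% (39.5% higher, 31.3% lower). Between macrophage subsets 0 of 6 members were called for Tim-4-CD4+ against Tim-4-CD4- (background 10.1%, with 4.52% higher and 5.53% lower), 1 of 6, Ly6i, for Tim-4+CD4+ against Tim-4-CD4- (23.1%), and 0 of 6 for Tim-4+CD4+ against Tim-4-CD4+ (3.41%). At an unadjusted p under 0.05 these became 3 (Ly6i, Ly6a and Ly6c1, background 22.8%), 3 (Ly6i, Ly6a and Ly6c2, 34.6%) and 1 (Ly6c1, 14.5%). By DESeq2 adjusted p they were 2 (14.1%), 2 (24.6%) and 0 (5.86%). The median log2 fold change of the 6 members in these comparisons was -0.56, -0.60 and -0.03 in the same order, against -0.00 for all tested genes in each.

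**Figure D4:**
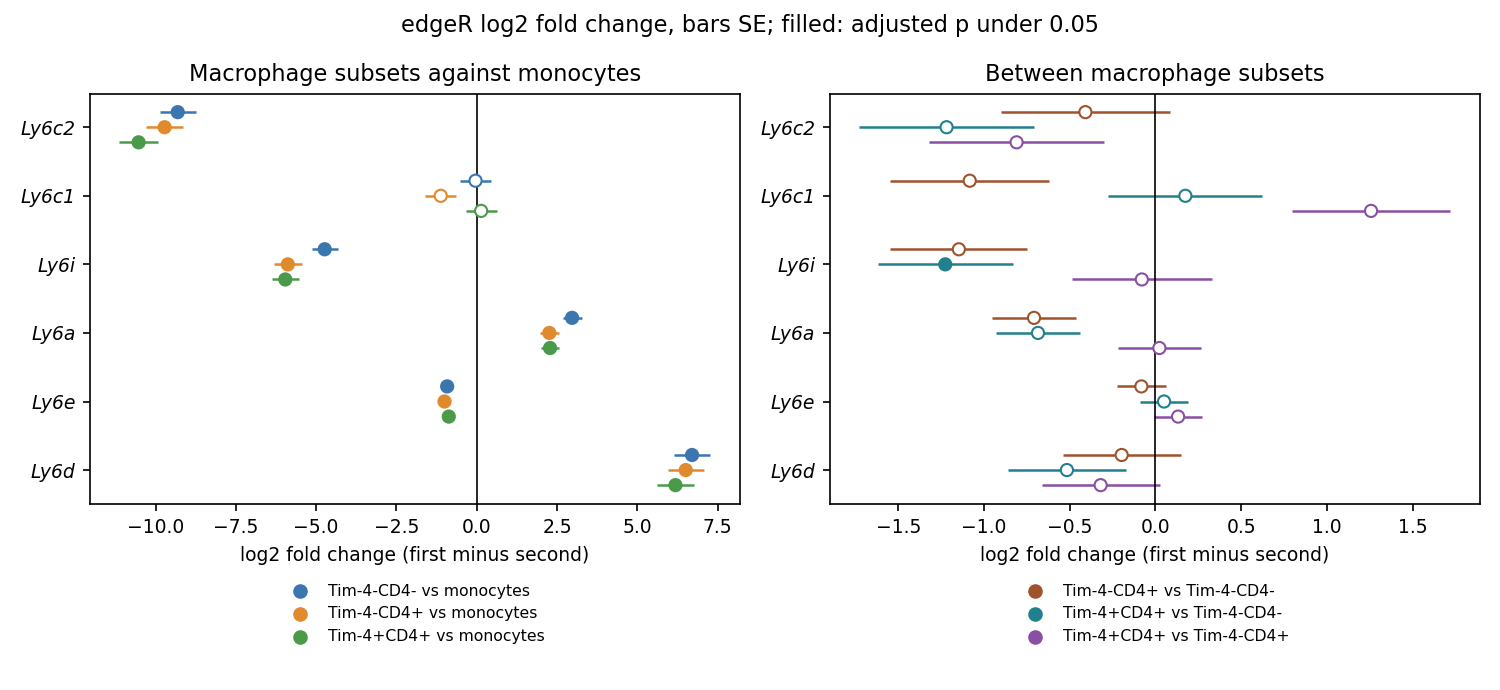
Points give the edgeR log2 fold change of each gene (first population minus second), bars the SE, and filled points an adjusted p under 0.05, with comparisons by colour. The left panel, macrophage subsets against the same 3 monocyte libraries, spans -10.53 to 6.70, and the right panel, between macrophage subsets, spans -1.23 to 1.26 with Ly6i in Tim-4+CD4+ against Tim-4-CD4- as its single filled point. Ly6C was part of the gate, so Ly6c1 and Ly6c2 in the left panel are a description.

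Comparing levels between genes requires a length. Per kb of 1 transcript, Ly6e and Ly6c2 were close in monocytes, at 1340.2 ± 329 and 1329 ± 480 CPM per kb, followed by Ly6i (24.4 ± 11.9), Ly6a (6.70 ± 4.26), Ly6c1 (1.37 ± 0.593) and Ly6d (0.0333 ± 0.0288). In Tim-4-CD4- macrophages the order was Ly6e (708 ± 51.6), Ly6a (53.2 ± 5.46), Ly6d (3.60 ± 1.84), Ly6c2 (2.09 ± 0.357), Ly6c1 (1.34 ± 0.970) and Ly6i (0.913 ± 0.155). From Ly6d downward, each gene overlapped its neighbour in this order. Ly6e and Ly6a led in the same way in Tim-4-CD4+ cells (669 ± 39.8 and 32.6 ± 2.71) and, with both markers, in Tim-4+CD4+ cells (734 ± 147 and 33.0 ± 5.92), and Ly6d came next in both (3.14 ± 0.946 and 2.52 ± 0.442). Over the union of all annotated exons, Ly6e in monocytes was at 808 CPM per kb and Ly6c2 at 399. The parity of these genes therefore depends on which length is used, because the annotated exons of Ly6c2 span 2740 bases and the transcript used here 822.

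Other members of the LU family gave a wider view. Of 18 further genes listed for the chromosome 15 cluster 5 were in the counts and 4 were tested, and of 19 listed elsewhere in the genome 9 were in the counts and 7 were tested. Within the cluster 3 of the 4 tested genes fell in each macrophage subset against monocytes, with medians of -1.74, -1.91 and -2.65 on the log2 scale. The share that fell over all tested genes was 28.1%, 30.7% and 31.3%. I830127L07Rik, annotated as a transcribed pseudogene beside Ly6c2 (chr15:75131377-75135128), gave 322, 225 and 183 CPM in monocytes and at most 0.330 CPM in any macrophage library (log2 fold changes -11.84 ± 0.41, -10.80 ± 0.37 and -12.82 ± 0.42; edgeR adjusted p = 1.9e-13, 1.4e-13 and 6.5e-14). Lynx1, whose product binds nicotinic acetylcholine receptors in brain, averaged 5.57 ± 0.527 CPM in monocytes and 1.70, 1.12 and 0.645 CPM in macrophages, and was lower in Tim-4+CD4+ than in Tim-4-CD4- cells (log2 fold change -1.38 ± 0.29, edgeR adjusted p = 0.0020).

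Outside the cluster 5 of the 7 tested LU genes rose in each subset, with medians of 3.65, 3.95 and 5.13 on the log2 scale. Most of those that rose were absent or nearly absent from monocytes. Such genes passed the filter on low counts through the macrophages and could hardly do other than rise. The count and the medians are therefore a description and no result about the family. The share that rose over all tested genes was 37.3%, 39.1% and 39.5%. Plaur, the urokinase receptor, was the abundant one. It averaged 164 ± 2.14 CPM in monocytes and 322 ± 19.8, 437 ± 45.9 and 547 ± 89.8 CPM in the macrophage subsets, in the order used above. Both subsets with CD4 exceeded Tim-4-CD4- cells (log2 fold changes 0.44 ± 0.11 and 0.76 ± 0.11; edgeR adjusted p = 0.014 and 6.1e-05). Cd177, a neutrophil surface protein, was likewise far higher in monocytes, with 459, 458 and 374 CPM in monocytes and 0.580 ± 0.187, 0.330 ± 0.172 and 0.0832 ± 0.0378 CPM in the macrophage subsets. Among macrophages it was lowest in Tim-4+CD4+ cells, against Tim-4-CD4- (log2 fold change -2.74 ± 0.37, edgeR adjusted p = 4.1e-05) and against the CD4-only subset (-1.86 ± 0.39, adjusted p = 0.010). Among other neutrophil markers in monocytes, Mmp8 was at 186 CPM, whereas S100a8 and S100a9 were at 1.21 and 0.413 CPM. The list did not move as 1: Mmp9 was at 1.16 CPM in monocytes and 1533, 3077 and 2157 CPM in the macrophage subsets. Mostly through Mmp9, the summed level of the list was higher in macrophages, at 1404 to 3277 CPM against 146 to 214 CPM in monocytes. A pair of low genes was highest in Tim-4+CD4+ cells by mean: Ly6g6e (0.338, 0.660 and 1.55 CPM, with 0 counts in every monocyte library) and Cd59a, a brake on complement (0.361, 0.435 and 1.02 CPM). Of this pair, the higher level of Ly6g6e in Tim-4+CD4+ than in Tim-4-CD4- cells passed the threshold (4.50-fold, edgeR adjusted p = 0.0022), and Cd59a in the same comparison was 2.80-fold higher (adjusted p = 0.18).

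The machinery that builds GPI anchors, on which most Ly6 proteins depend, was fully measured, with 30 of 30 listed genes tested. Against monocytes 7 rose and 16 fell in Tim-4-CD4-, 8 rose and 15 fell in Tim-4-CD4+, and 9 rose and 15 fell in Tim-4+CD4+ macrophages, with medians of -0.34, -0.39 and -0.30 beside 0.08, 0.11 and 0.10 for all tested genes. Over all tested genes 37.3%, 39.1% and 39.5% rose and 28.1%, 30.7% and 31.3% fell. Pigz, which adds a side mannose to the anchor, rose 28.3-, 44.3- and 47.1-fold from 0.693 CPM. Piga, which starts the pathway, rose by 1.93 on the log2 scale in Tim-4-CD4- cells (adjusted p = 4.9e-07). Gpld1, a phospholipase that cuts GPI anchors, went from 5.25 CPM in monocytes to 0.0335, 0.107 and 0.102 CPM. Between macrophage subsets 2 of 30 were called for Tim-4-CD4+ against Tim-4-CD4- (background 10.1%), 4 of 30 for Tim-4+CD4+ against Tim-4-CD4- (23.1%), and 0 of 30 between the CD4+ subsets (3.41%). Pgap1, which removes a fatty acid from the new anchor, rose 1.56- and 1.70-fold in the first pair of comparisons (edgeR adjusted p = 0.018 and 0.0026), and Pigz rose 1.57- and 1.67-fold (adjusted p = 0.0034 and 0.00049). In the second, Pigp rose 1.49-fold (adjusted p = 0.0024) and Pgap2 fell 1.21-fold (adjusted p = 0.047).

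Because Ly6e and Ly6a respond to interferon in many cells, 30 interferon-inducible genes were read beside them, and all 30 were tested. Against monocytes 3, 6 and 5 rose and 21, 21 and 20 fell in the macrophage subsets, with medians of -0.74, -0.91 and -0.91. Of all tested genes 37.3%, 39.1% and 39.5% rose and 28.1%, 30.7% and 31.3% fell. Oas3, an antiviral sensor of double-stranded RNA, fell 7.32-, 10.5- and 13.4-fold, and Cmpk2 fell 4.94-, 6.02- and 6.18-fold. Isg15, a ubiquitin-like modifier, rose 2.11-, 2.82- and 3.63-fold. Ly6e thus moved in the direction of the larger group and Ly6a in that of the smaller. Between subsets 0 of 30 were called for Tim-4-CD4+ against Tim-4-CD4- (background 10.1%). In Tim-4+CD4+ against Tim-4-CD4- cells (background 23.1%) 2 rose (Isg15 1.72-fold and Oasl1 1.69-fold) and 2 fell (Oas3 1.83-fold and Usp18 1.69-fold). Between the CD4+ subsets 1 of 30 was called (background 3.41%), Ifi44, which was 2.30-fold lower in Tim-4+CD4+ cells (edgeR adjusted p = 0.044).

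Genes whose log2 CPM followed each member most closely were listed by Pearson correlation, as a description. Over all 15 libraries the coefficients reflect mainly the gap between monocytes and macrophages: among the closest to Ly6c2 were Hp, Cyp2ab1, Zfp706 and Chil3 (r = 0.99 each), to Ly6i Prtn3, Sirpb1b, Nfe2, Slc25a12 and Esyt1 (0.98 to 0.99), and to Ly6a Srgn, Ccr7, Il21r, Ccl5 and Rbbp7 (0.98 to 0.99). Those closest to Ly6e were Spryd3, Ifitm2, Chmp2a, Zpr1 and Gstp1 (0.96 to 0.98), to Ly6d Gpr34, Cald1, Ppp1r16b, Xrcc2 and Lad1 (0.99 each), and to Ly6c1 Itpk1, Sod1, Fermt3, Pex16 and Tmem141 (0.74 to 0.76). Ly6c1 had no gene as close as the other 5 members did. Within the 12 macrophage libraries, which share a tissue and a sort, the lists changed. Ly6c2 then had Hp (0.89) and Chil3 (0.87) beside the pseudogene H3f3a-ps1 (0.95) and Gm10250 and Gm10123. Ly6i had Cers5 (0.92), Nim1k, Nfe2, Mir17hg and Prtn3, and Ly6c1 had, among others, Sema3f (0.90), Zfp433, the endothelial gene Plvap (0.89) and Eml1. Ly6a had Nhp2 (0.97), Cnp, Eif4h, Bri3bp and Gpx1, Ly6e had, among others, Ldha (0.95), Mesd, Bcat2 and Gtpbp3, and Ly6d had the smooth muscle gene Mylk (0.96), BE692007, Arap2, Chst10 and Strbp. Between members in macrophages the highest coefficient was that of Ly6a with Ly6i (0.73), and Ly6c1 with Ly6c2, the most alike in coding sequence, gave -0.17. Subset means were not removed. Ly6a and Ly6i were both highest in the Tim-4-CD4- libraries, so their coefficient partly restates that gap between subsets. The summed level of 10 mesenchymal markers was 79.6 to 117 CPM in Tim-4-CD4-, 91.8 to 116 CPM in Tim-4-CD4+ and 127 to 177 CPM in Tim-4+CD4+ libraries, and its part in the Ly6d pattern was not tested.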

How the data were processed

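Per the labels and methods, RNA of sorted cells was made into stranded mRNA libraries and read as paired 65-base reads. The authors used Trimmomatic 0.36 for trimming and STAR 2.4.2 for alignment (build GRCm38.p4), and HTSeq 0.6.1p1 counted the uniquely mapped reads of each GENCODE vM11 gene, tool versions being those of the submitters' processing notes and the methods. The strand setting of the counting is not given in the sources used here. The deposited values used were these raw counts, in whole reads per gene, for 19456 genes, none with a total under 16 counts. The 15 normalized value columns deposited beside them, and the authors' own comparisons, were not used.

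Libraries were grouped by title. Counts were tested with edgeR 4.0.16 in R 4.3.3: filterByExpr by population kept 15802 genes, library sizes were scaled by TMM, and 1 quasi-likelihood fit of all 15 libraries gave 6 pairwise comparisons, with Benjamini-Hochberg adjustment over all tested genes and a threshold of 0.05. No pair of libraries had over 0.836% of genes with equal counts, so all were kept as separate. The members, marker lists and pathway lists were chosen with earlier results of these data known. Besides the members, genes were named by rule: other LU genes with a mean of at least 1 CPM in a population, up to 3 called genes per direction and comparison of the GPI and interferon lists, and the 5 genes closest to each member. S100a8, S100a9, Mmp8, Mmp9, Jchain, Tcf4, Ccr9, Siglech, Ccr2, Itgam and Vcan were named as list members. A few genes that these rules name are not reported here. Coordinates, transcripts and 65-base windows came from GENCODE vM21 (GRCm38), promoters from RefSeq, and alignments were made with Biopython 1.88. For between-gene levels CPM was divided by the length of 1 transcript per gene, a choice made after seeing the data. Alternatives were DESeq2 1.42.0, RLE scaling, other filters on low counts, fits of 2 populations, thinning to the smallest library, replicate blocks and leaving out each library. The fitting scripts were tested on simulated data. Errors are SD between the 3 or 4 pools of a population, or SE of the fit.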

Additional observations from a re-analysis of the deposited data

Results flagged for a closer look

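Of 42 sets of 4 macrophage libraries examined, 2 held a library far from the other 3, and by chance about 1 in 20 such sets would. Ly6c2 in Tim-4+CD4+ replicate 1 was at 1.05 CPM, against 0.611 to 0.628 CPM in the other 3 libraries of that subset. The LU family gene Cd177 in Tim-4-CD4+ replicate 1 was at 0.586 CPM, against 0.228 to 0.269 CPM in the others. Ly6c2 and I830127L07Rik were also highest in Tim-4-CD4+ replicate 1 among the libraries of that subset, at 3.46 and 0.330 CPM.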

How the results depend on the processing

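Against monocytes 5 of 6 Ly6 genes passed the threshold under every alternative run, with 6 for Tim-4-CD4+ in some, where Ly6c1, a gene of the gate, was added: DESeq2 (log2 fold change -1.07), the 2 populations fitted alone (-1.11), the replicate block by description number (-0.98) and counts thinned to the smallest library (-1.13). Leaving out single libraries gave Ly6c1 -1.26 to -0.67 there. Between macrophage subsets calls were less stable. For Tim-4-CD4+ against Tim-4-CD4-, DESeq2 called 2 genes (Ly6a -0.69, Ly6i -1.14), the 2 populations alone 1 (Ly6a -0.70) and the block by title number 1 (Ly6i -1.21), and leaving out a library gave 0 to 1. For Tim-4+CD4+ against Tim-4-CD4-, DESeq2 called 2 (Ly6a -0.66), the 2 populations alone 3 (Ly6a -0.67, Ly6c2 -1.22), the block by title 3 (Ly6a -0.71, Ly6c2 -1.32), the block by description 2 (Ly6a -0.70) and thinning 2 (Ly6a -0.68), and leaving out a library gave 0 to 2.

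Leaving out 1 library at a time gave log2 fold changes for Tim-4-CD4+ against Tim-4-CD4- of -0.76 to -0.64 (Ly6a), -1.38 to -0.043 (Ly6c2) and -0.42 to 0.22 (Ly6d). For Tim-4+CD4+ against Tim-4-CD4- they were -0.80 to -0.60 (Ly6a), -1.47 to -1.09 (Ly6c2), -1.49 to -1.08 (Ly6i), -0.14 to 0.80 (Ly6c1) and -0.075 to 0.14 (Ly6e). For Tim-4+CD4+ against Tim-4-CD4+ they were -1.16 to 0.17 (Ly6c2), -0.39 to 0.22 (Ly6i) and -0.089 to 0.11 (Ly6a). Ly6c1 against monocytes gave -0.63 to 0.41 in Tim-4-CD4- and -0.16 to 0.59 in Tim-4+CD4+ cells, and for the former the sign also turned with a filter on a mean of 1 CPM (0.0016) and with the 2 populations alone (0.0067). Where a range crosses 0 the direction changed, and none of those results passed the threshold in any setting.

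Replicate numbers in titles and descriptions differ for Tim-4-CD4+ libraries, and neither is said to mark a shared sort. Same-numbered deviations correlated at -0.123 to 0.134 by title (2 of 12 pairs above 0.1, 3 best with their own number) and -0.0888 to 0.161 by description (4 and 6 of 12), so neither was taken as a pairing. Genes called in Tim-4+CD4+ against Tim-4-CD4+ rose from 539 to 917 with DESeq2, and in Tim-4-CD4+ against Tim-4-CD4- ranged from 1033 to 2203 (1589 with all libraries) when 1 was left out. Dividing by exon length moved the Ly6c1 share to 0.171% in monocytes and 73.2% in Tim-4+CD4+ cells. The cause of these changes was not tested. The length of 1 transcript in place of all exons was chosen after seeing the data. Macrophage libraries held 10 to 306 counts of Ly6c1, Ly6c2, Ly6i or Ly6d, and thinning to the smallest library lost no call of the 6 genes.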
